A study of Mus musculus with 16 samples.

Results

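Oocytes of sexually immature mice were compared with oocytes of adults after hormonal stimulation of both. The data are genome-wide DNA methylation maps of 9 pools of mature (MII) oocytes from C57BL/6J X CBA/Ca F1 females, out of 16 pools in the whole series. The 5 SO pools came from prepubertal females of 23 days and the 4 SOA pools from adults of 10 weeks. Both groups were injected with equine and later with human chorionic gonadotropin (eCG, hCG), at 2.5 IU of each in SO and 5 IU of each in SOA, so age and dose cannot be told apart. The other groups served as reference. IFC (4 pools) were oocytes of follicles that were taken at 13 days of age and grown for 10 days in a medium with hormones, and the labels give their age as 23 days. IV (3 pools) were oocytes that 10-week-old adults ovulated without injected hormones. Each library is a pool of oocytes by the methods of the study, so single oocytes or females were not measured. The labels name the cells as oocytes, but their extraction text speaks of lysing 1 blastocyst. The study states that MII oocytes were collected in pools for these libraries, and its account was followed here. Methylation was read over fixed 10-kb bins of the autosomes. A bin was used when each of the 9 libraries had at least 10 CpG calls in it, where a call is 1 read over 1 cytosine of a CpG. This held for 133451 of 246285 bins.

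DNA methylation marks cytosines next to guanines and is nearly absent in the small oocytes of resting follicles. As an oocyte grows, the enzyme DNMT3A with its partner DNMT3L is guided by histone marks left behind by transcription, so that a mature oocyte has blocks of highly methylated DNA between poorly methylated stretches. Imprints of maternal origin are set in the same period.

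Windows from 4 of the regions that differed most are shown here so that the CpGs behind the values can be seen. Each line is the window of 300 bases with the most calls within its bin, from the GRCm38 reference, plus strand, with CpGs in capitals. The windows are the coding exon of Cnr1 (chr4:33944033-33944332), an intron of Slit2 (chr5:48100650-48100949), an intron of Rbm47 (chr5:66099052-66099351) and DNA without an annotated gene (chr5:75684301-75684600).
Cnr1: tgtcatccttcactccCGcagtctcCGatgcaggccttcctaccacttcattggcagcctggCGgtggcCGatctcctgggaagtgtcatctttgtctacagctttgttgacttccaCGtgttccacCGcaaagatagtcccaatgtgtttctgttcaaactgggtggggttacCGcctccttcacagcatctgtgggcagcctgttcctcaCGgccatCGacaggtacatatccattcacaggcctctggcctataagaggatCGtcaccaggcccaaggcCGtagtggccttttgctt
Slit2: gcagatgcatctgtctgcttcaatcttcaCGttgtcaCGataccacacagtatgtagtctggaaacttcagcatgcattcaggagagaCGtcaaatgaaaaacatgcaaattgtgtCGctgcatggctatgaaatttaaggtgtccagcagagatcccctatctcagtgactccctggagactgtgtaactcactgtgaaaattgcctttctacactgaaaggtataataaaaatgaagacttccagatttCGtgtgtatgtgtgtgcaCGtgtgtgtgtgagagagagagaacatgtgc
Rbm47: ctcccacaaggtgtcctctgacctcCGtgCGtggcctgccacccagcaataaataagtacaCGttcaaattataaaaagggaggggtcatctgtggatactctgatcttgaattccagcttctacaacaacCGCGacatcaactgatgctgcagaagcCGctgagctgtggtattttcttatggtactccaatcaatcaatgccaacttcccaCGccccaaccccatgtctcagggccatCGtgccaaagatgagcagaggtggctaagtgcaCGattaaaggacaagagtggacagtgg
Unannotated: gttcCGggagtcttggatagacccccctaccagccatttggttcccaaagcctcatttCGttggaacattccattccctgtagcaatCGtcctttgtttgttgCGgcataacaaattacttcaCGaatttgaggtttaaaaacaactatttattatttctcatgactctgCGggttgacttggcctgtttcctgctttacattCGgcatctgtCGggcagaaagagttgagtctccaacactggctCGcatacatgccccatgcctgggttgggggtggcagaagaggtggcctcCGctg
The Cnr1 window holds 11 CpGs, with 29 of 53 calls methylated in SO and 8 of 48 in SOA. The Slit2 window holds 6 CpGs, with 15 of 27 calls methylated in SO and 3 of 25 in SOA. In these windows SO was the higher group. The Rbm47 window holds 9 CpGs, with 5 of 41 calls methylated in SO, all 5 of them in SO3, and 18 of 18 in SOA. The unannotated window holds 10 CpGs, with 19 of 42 calls methylated in SO and 26 of 27 in SOA. These are calls pooled over libraries of regions chosen for their difference, with no test.

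The SO libraries held 5247001 to 19660161 calls and the SOA libraries 5218053 to 23065411, with a median of 26 to 117 calls per bin. SO3, SO4, SO5 and SOA4 had over 10000000 calls and the other 5 libraries fewer, so depth went partly with group. The labelled cell type was checked at imprinted genes, with the calls of each group pooled. Windows at the starts of Snrpn, Peg3, Kcnq1ot1, Peg10, Nnat, Nap1l5 and Airn, which carry a maternal mark, had 86.1% to 97.7% methylation in SO and 87.6% to 100% in SOA. The window before H19, which is marked in sperm and not in oocytes, had 1.23% in SO and 1.35% in SOA. Windows at the annotated starts of Plagl1 and Impact had 1.44% to 3.37%, and at Mest 51.1% of 45 calls in SO and 23.8% of 42 calls in SOA. These values are low for a maternal mark. Whether the windows of these 3 genes cover the marked region was not tested. The study reported high methylation in all samples at the maternally methylated imprint regions it assessed. SO4 stood apart in the bins that are under 20% in IV, with 10.5% against 7.27% to 7.93% in the other SO libraries and 6.21% to 8.13% in SOA.

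The genome-wide level did not differ between the ages beyond the spread of the pools. The mean over bins was 42.3% ± 0.696 (SD, n = 5) in SO and 42.3% ± 1.13 (SD, n = 4) in SOA, a difference of 0.00621 points, by an exact permutation test on both sides (p = 1, where 0.00794 is the lowest value the design can reach). The libraries lay between 41.3% and 42.9% in SO and between 40.9% and 43.6% in SOA. In bins under 20% in IV, the mean was 8.12% ± 1.33 in SO and 7.21% ± 0.836 in SOA (exact permutation p = 0.31). In bins at 20% to 80% in IV, it was 46.9% ± 1.41 in SO and 47.6% ± 2.05 in SOA (exact permutation p = 0.571). In bins over 80% in IV, it was 91.9% ± 1.05 in SO and 92.6% ± 0.672 in SOA (exact permutation p = 0.27). Of 8 values per library compared in this way none passed, and the lowest adjusted p was 0.914.

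Single regions differed in both directions. A bin was called when its adjusted p was under 0.05 and the group means of the library percentages were at least 20 points apart. By this rule 624 bins (0.468% of those tested) were higher in SO and 501 (0.375%) were higher in SOA. Over the bins higher in SO the mean was 60.7% ± 2.91 in SO and 31.2% ± 2.32 in SOA, and over those higher in SOA it was 38.6% ± 4.66 in SO and 68.2% ± 3.27 in SOA, which describes bins selected for that difference. The libraries of the groups did not overlap in 510 of the bins higher in SO and in 424 of those higher in SOA, while 3.57% of all bins had no overlap. SO3 was the SO library nearest to SOA in both directions, with 55.8% in the bins higher in SO and 45.0% in those higher in SOA. Among the libraries under 10000000 calls, the bins higher in SO stood at 63.0% in SO and 32.1% in SOA. Among the deeper ones they stood at 59.1% in SO and 28.6% in SOA4, the only deep SOA library. The bins higher in SOA stood at 39.8% and 69.2% in the shallow libraries and at 37.7% and 65.2% in the deep ones. These bins were selected on the same libraries, so a difference at each depth was built in and does not show independence from depth. The number of calls leaned on single libraries, since it was 150 and 199 without SOA4, and 459 and 318 without SO4. With limma on the library percentages it was 221 and 187, and with a fit on the libraries under 10000000 calls alone 67 and 47.

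The same bins also separated the reference groups, which had no part in choosing them. All 16 libraries covered 606 of the bins higher in SO and 494 of those higher in SOA. In the bins higher in SO, the IFC libraries stood at 62.6%, 63.5%, 60.8% and 56.8% and the IV libraries at 36.5%, 30.2% and 31.7%. All IFC pools were above all IV pools, by 28.1 points in the means (two-sided exact permutation p = 0.0286, the smallest possible). In the bins higher in SOA, the IFC libraries stood at 38.0%, 37.6%, 37.6% and 34.7% and the IV libraries at 67.0%, 63.2% and 61.2%. Here all IFC pools were below all IV pools, and the difference was -26.9 points (exact permutation p = 0.0286). Over all 127112 bins so covered, the mean was 42.2% ± 0.933 in IFC and 42.8% ± 2.17 in IV (exact permutation p = 0.714). IFC was above IV in 98.2% of the bins higher in SO and below it in 95.5% of the bins higher in SOA, against 46.8% and 53.2% of all bins. Without IV1, in which the study saw possible contamination by cumulus cells and which it kept, the differences were 29.97 and -25.3 points (exact permutation p = 0.0667, the smallest possible with the IV pools left). IFC and IV differ in culture and in exposure to hormones as well as in age, and these cannot be told apart.

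**Figure D1:**
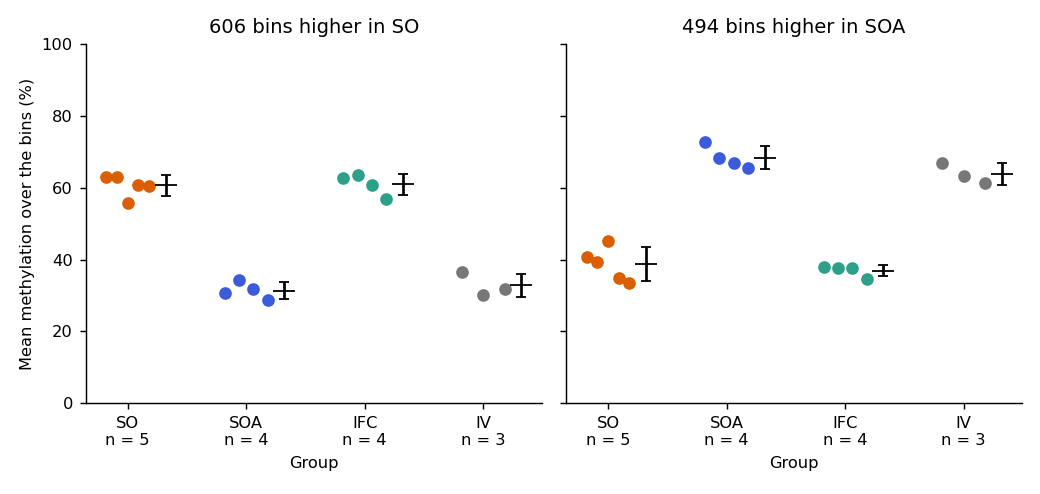
Mean methylation (vertical axis, %) of each library over the called bins that all 16 libraries covered, for the bins higher in SO and the bins higher in SOA. The bins were chosen on SO and SOA only. In the bins higher in SO, the 4 IFC libraries lie between 56.8% and 63.5% and the 3 IV libraries between 30.2% and 36.5%.

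Most called bins were at an intermediate level in unstimulated adults. By the IV libraries, 71.3% of the bins higher in SO and 72.7% of those higher in SOA stood at 20% to 80%, a range that held 30.6% of all bins. A further 28.4% of the bins higher in SO were under 20% in IV and 2 bins were over 80%. Of the bins higher in SOA, 26.1% were over 80% in IV and 6 bins were under 20%. The share of bins called higher in SO was highest, at 1.51%, among bins at 20% to 30% in IV, and the share called higher in SOA was highest, at 1.48%, among bins at 70% to 80%. These shares carry no test, since a low bin has little room to fall and a high bin little room to rise.

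**Figure D2:**
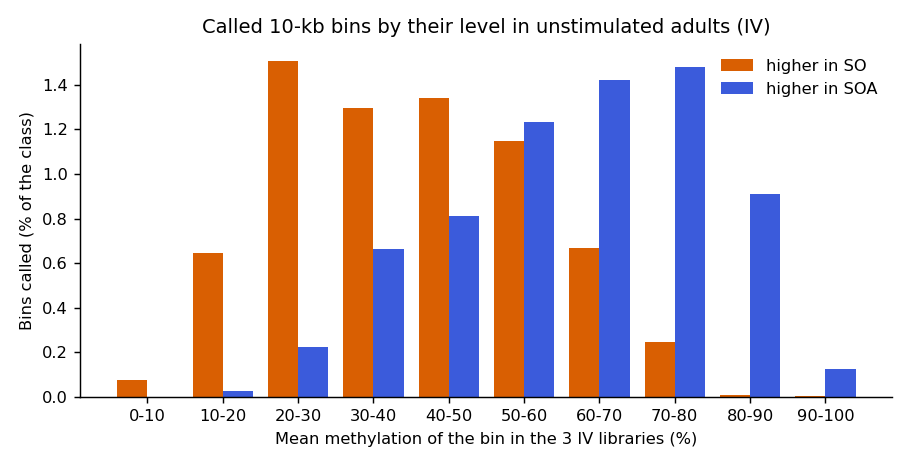
Share of bins called higher in SO and higher in SOA (vertical axis, %) by the mean level of the bin in the 3 IV libraries (horizontal axis, %, in classes of 10 points). The share higher in SO peaks at 20% to 30% (1.51%) and the share higher in SOA at 70% to 80% (1.48%).

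Bins higher in SO mostly lay in genes. A protein-coding gene was touched by 537 of the 624 bins higher in SO (86.1%) and by 273 of the 501 bins higher in SOA (54.5%), against 59.4% of all bins. A promoter, taken as the 1000 bases before a gene start, was touched by 4.81% and 7.39% of them and by 12.4% of all bins. The median bin had 107 CpGs among those higher in SO, 108 among those higher in SOA and 99 among all bins. In genes of at least 50 kb, cut into 5 equal parts, 0.922% of the bins in the part nearest the start were higher in SO and between 0.763% and 1.07% of those in the other parts, so these bins lay all along the genes. By chromosome, the share higher in SO ranged from 0.204% on chromosome 7 to 0.993% on chromosome 18, and the share higher in SOA from 0.122% on chromosome 16 to 0.905% on chromosome 15.

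Called bins often had called neighbours. Of the bins higher in SO, 291 (46.6%) lay in 96 runs of at least 2 adjacent bins, and of those higher in SOA, 212 (42.3%) lay in 77 runs. The longest run covered 130 kb inside Tcf4 (chr18:69400001-69530000), at 82.8% ± 2.25 in SO and 51.1% ± 8.34 in SOA. A run of 100 kb inside Prkag2 (chr5:24990001-25090000) stood at 61.3% ± 5.17 in SO and 24.3% ± 3.96 in SOA, and one of the same length inside Msi2 (chr11:88480001-88580000) at 48.2% ± 6.34 in SO and 83.4% ± 4.12 in SOA. Runs of 90 kb lay inside Rbm47 (chr5:66070001-66160000), at 36.2% ± 14.2 in SO and 77.2% ± 5.15 in SOA, and inside Mark1 (chr1:184900001-184990000), at 60.4% ± 7.81 in SO and 29.6% ± 2.99 in SOA. Each of these 5 runs was contained in 1 gene. At least 1 bin higher in SO was found in 239 genes and at least 3 in 55, and for bins higher in SOA in 165 and 21.

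Over whole gene bodies, 271 of 16498 tested genes (1.64%) were higher in SO and 126 (0.764%) were higher in SOA, at an adjusted p under 0.05 with no limit on the difference. The groups did not overlap in 194 and 105 of them, against 4.13% of all gene bodies. In simulated data the same test called 159 changed and 38 unchanged genes, so these numbers may hold more false calls than the adjusted p implies. The median difference was 11.3 points among the genes higher in SO and -13.2 points among those higher in SOA, and 42 and 27 genes reached 20 points. The median length was 81866 bases for the genes higher in SO, 59461.5 for those higher in SOA and 25326 for all, and longer genes carry more calls. The numbers were 88 and 86 without SOA4, and the number higher in SOA was 75 without SO5, 82 without SOA1 and 80 without SOA2. With limma on the library percentages they were 42 and 22, and in the libraries under 10000000 calls 87 and 48.

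Of the 15 genes with the most bins higher in SO, the 4 with the most encode transcription factors. Klf12, a Krüppel-like repressor, had 23 of 38 bins called. Its gene body (chr14:99870632-100284679) stood at 31.4%, 36%, 29%, 36% and 33.9% in SO1 to SO5 and at 11.3%, 11.4%, 8.77% and 6.89% in SOA1 to SOA4. Every SO library was above every SOA library, by 23.7 points in the means (adjusted p = 4.13e-10). Tcf4, a basic helix-loop-helix protein that binds E-boxes, had 21 of 35 bins called, and its body (chr18:69343356-69689079) stood at 78.7%, 77.9%, 75.6%, 78.1% and 78.2% in SO1 to SO5 and at 50.9%, 57.2%, 60% and 50% in SOA1 to SOA4. The SO pools lay close together, and the difference was 23.2 points (adjusted p = 1.22e-12, the smallest of all gene bodies). Zfp521, a zinc-finger regulator of progenitor cells, had 19 of 28 bins called, and its body (chr18:13687013-13972787) stood at 59.5% ± 3.19 in SO and 28.9% ± 1.83 in SOA (adjusted p = 4.3e-09). Npas3, a helix-loop-helix factor of the brain, had 19 of 70 bins called and stood at 63.5% ± 2.72 in SO and 51.2% ± 3.56 in SOA (adjusted p = 5.01e-07). A further such factor lower in the order was Zbtb20, a zinc-finger repressor with 13 of 41 bins called, which stood at 55.9% ± 2.21 in SO and 38.9% ± 2.74 in SOA (adjusted p = 1.25e-06). In all 5 genes the groups did not overlap. The IFC mean lay nearer to SO and the IV mean nearer to SOA, as in Klf12 with 35.3% ± 2.66 in IFC and 11.8% ± 3.73 in IV. Tcf4 had 82.9% ± 3.19 in IFC and 45.1% ± 2.76 in IV. There every IFC library was above every SO library and every IV library below every SOA library, which was not tested.

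The other genes among the 15 have varied roles, and Prkag2 and Atrnl1 had more bins called than Zbtb20. Prkag2, a regulatory subunit of the kinase AMPK, had 15 of 25 bins called, and its body stood at 52.9% ± 4.23 in SO and 31.4% ± 2.96 in SOA (adjusted p = 7.36e-07). It also held 1 bin in the other direction close to its end (chr5:24870001-24880000), at 41.0% ± 8.16 in SO and 63.0% ± 8.11 in SOA. Mark1, a kinase of microtubule-associated proteins, had 9 of 11 bins called and stood at 53.8% ± 6.49 in SO and 26.1% ± 2.59 in SOA (adjusted p = 5.59e-06). Atrnl1, a relative of attractin, had 14 of 48 bins called and stood at 46.6% ± 2.93 in SO and 33.1% ± 1.98 in SOA (adjusted p = 9.59e-06). Ctnnd2, a delta-catenin of neurons, had 10 of 68 bins called, and Slit2, a secreted cue for growing axons, had 7 of 17. The others were Dlgap2, a scaffold of the postsynaptic density, Rad51b, which acts in homologous recombination, Pakap, Arhgap24, a GTPase-activating protein, and 1700025G04Rik. All 15 genes passed over the gene body with no overlap of the groups, by 6.84 points in Dlgap2 to 30.6 points in Zfp521. They were chosen for called bins in the same libraries, so this is a description and not separate evidence. With limma on the library percentages, Klf12, Tcf4, Zfp521, Prkag2 and Mark1 passed and the other 10 did not, among them Npas3 (adjusted p = 0.276), Zbtb20 (0.0853), Atrnl1 (0.145) and Slit2 (0.0684).

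Of the genes with the most bins higher in SOA, the first encode RNA-binding proteins. These genes too were chosen for called bins in the same libraries, so their gene-body tests are not separate evidence. Msi2, known from stem and progenitor cells, had 22 of 39 bins called, and its body (chr11:88339382-88718513) stood at 48.7%, 49.9%, 60.3%, 41.8% and 46.6% in SO1 to SO5 and at 79.8%, 72.1%, 71.5% and 72% in SOA1 to SOA4. SO3 was the nearest to the adults and still below them all, and the difference was -24.4 points (adjusted p = 4.12e-07). Rbm47, which takes part in RNA editing, had 11 of 17 bins called, and its body stood at 53.7%, 45.2%, 64.4%, 36% and 30.9% in SO1 to SO5 and at 84.1%, 76.8%, 70.5% and 77.1% in SOA1 to SOA4. The SO pools were widely spread and below all SOA pools, and the difference was -31.1 points (adjusted p = 5.8e-05). Fer1l6, of the ferlin family, had 9 of 16 bins called and stood at 17.6% ± 5.51 in SO and 45.3% ± 4.62 in SOA (adjusted p = 9.51e-06). Col18a1, a collagen of basement membranes, stood at 9.5% ± 2.88 in SO and 28% ± 1.87 in SOA (adjusted p = 3.05e-06). Ank, a membrane protein of pyrophosphate transport, stood at 67.9% ± 5.6 in SO and 85.3% ± 3.22 in SOA (adjusted p = 9.93e-06), and Ldlrad3, a relative of the LDL receptor, at 59.5% ± 7.03 in SO and 73.5% ± 4.43 in SOA (adjusted p = 3.39e-05). With limma, Fer1l6 and Col18a1 passed, while Msi2 (adjusted p = 0.0562), Rbm47 (0.0914), Ank (0.074) and Ldlrad3 (0.305) did not.

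Soga1 and Cdh13 were unlike these genes. Soga1, which binds microtubules, had 5 of 7 bins called, and its body (chr2:157015799-157079254) stood at 28.4%, 26.2%, 27%, 25.3% and 20% in SO1 to SO5 and at 68.7%, 61.7%, 59.7% and 47.2% in SOA1 to SOA4. The groups were far apart, by -33.9 points (adjusted p = 2.53e-05, with limma 0.0177). The reference groups were close to each other there, with 46.6% ± 5.64 in IFC and 50.7% ± 7.72 in IV, whereas Msi2 had 46.2% ± 4.06 in IFC and 73.1% ± 0.447 in IV. Whether the difference between SO and SOA at Soga1 departs from that between IFC and IV was not tested. Cdh13, a cadherin anchored by a lipid, had 7 bins higher in SOA between chr8:118370001-118380000 and chr8:118450001-118460000 and 1 bin higher in SO (chr8:119050001-119060000), and its body did not pass, with 41.7% ± 3.45 in SO and 47.8% ± 4.55 in SOA (adjusted p = 0.384). Without SOA4 it passed (adjusted p = 0.0194).

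**Figure D3:**
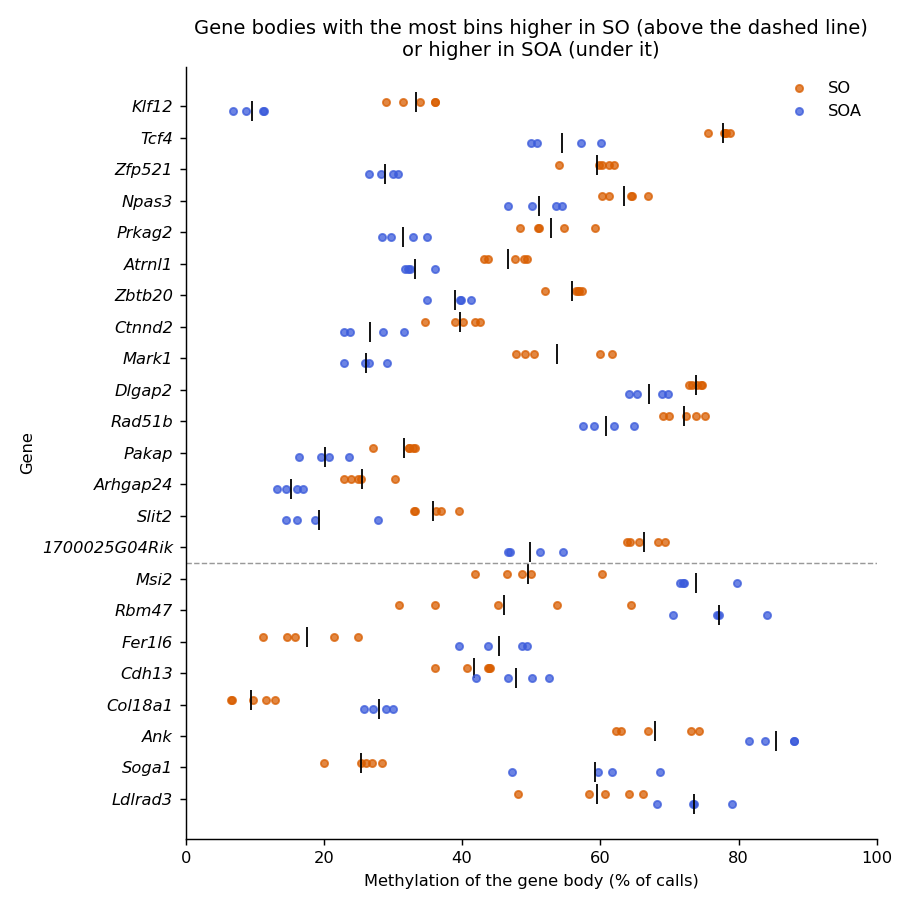
Gene-body methylation (%) of each SO and SOA library in the 15 genes with the most bins higher in SO and the 8 genes with the most bins higher in SOA. The groups do not overlap in any of these genes but Cdh13, where the means are 41.7% in SO and 47.8% in SOA. The genes were chosen for called bins in the same libraries.

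For the 15 genes with the most bins higher in SO, the differences mostly ended where the genes ended. Over the bins inside the 15 genes, the mean difference of a gene had a median of 15.3 points, and over the bins within 100 kb on either side a median of 0.756 points. Of 248 outside bins, 0 were called higher in SO and 2, beside Arhgap24, were called higher in SOA. Over all bins these shares were 0.468% and 0.375%, so few calls were due there in any case. The 8 bins after Arhgap24 had a mean difference of -20.9 points. For the 8 genes with bins higher in SOA, the medians were -21.9 points inside and -2.03 points outside. There 6 of 151 outside bins were called higher in SOA, a larger share than the 0.375% of all bins. Of these 6 bins, 4 lay beside Fer1l6, where the 10 bins after the gene had a mean difference of -20.2 points. Another 1 lay beside Rbm47 and 1 beside Soga1, so in this direction the differences reached past some genes. The genes were chosen for their inside bins, so this contrast is a description. In Tcf4 the mean difference was 24.4 points inside and 1.96 points outside. In Msi2 the first bins of the gene were low in both groups, and the groups parted further in.

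**Figure D4:**
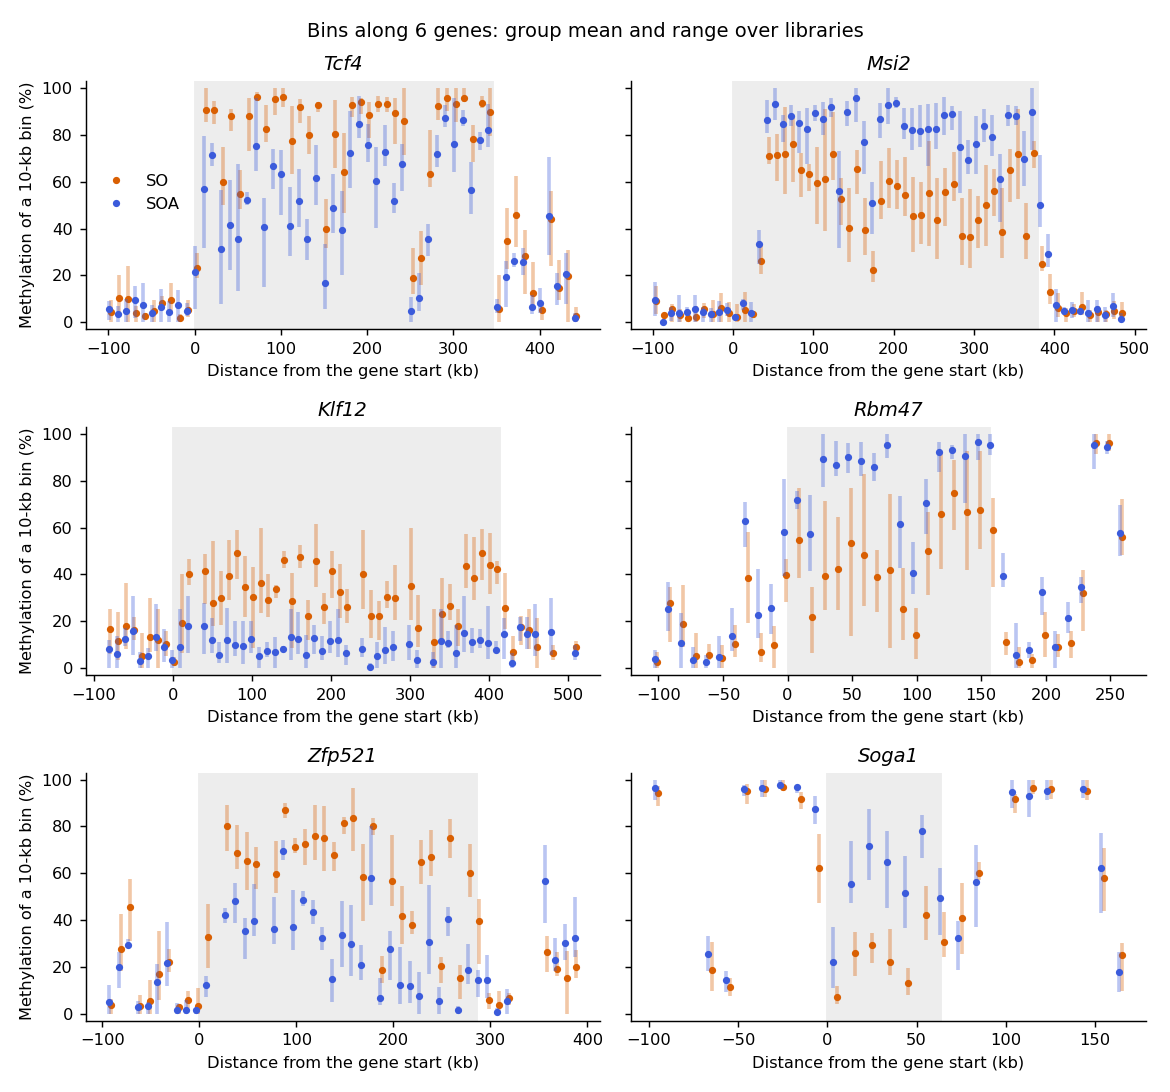
Methylation of 10-kb bins (vertical axis, %) by distance from the gene start (horizontal axis, kb, in the direction of transcription) in SO and SOA, for Tcf4, Klf12, Zfp521, Msi2, Rbm47 and Soga1, with 100 kb on either side. The groups part inside the genes, as in Tcf4, where the mean difference is 24.4 points inside and 1.96 points outside. Outside the gene, 1 bin beside Rbm47 and 1 beside Soga1 were also called.

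The 6 bins with the largest differences toward SO and no overlap of the groups lay in 4 genes. In Zfp521, the intronic bin chr18:13740001-13750000 stood at 64.9% ± 7.27 in SO and 7.49% ± 8 in SOA (adjusted p = 4.83e-05), and SOA3 had 0 of 49 calls methylated, which allows up to 6.12%. Other bins of Zfp521, chr18:13810001-13820000 with 3 exons and chr18:13830001-13840000 in an intron, differed by 53.5 and 53.1 points. In Cdh8, a classical cadherin, the bin chr8:99400001-99410000 with 1 exon stood at 94% ± 4.19 in SO and 38.8% ± 16.2 in SOA (adjusted p = 0.000349). In Slit2, the intronic bin chr5:48100001-48110000 stood at 58.3% ± 17.1 in SO and 4.86% ± 5.73 in SOA (adjusted p = 0.00453), on 10 to 63 calls per library. There SOA2 had 0 of 10 calls methylated and SOA3 0 of 14, which allow up to 30% and 21.4%. In Cnr1, the cannabinoid receptor of the brain, the bin chr4:33940001-33950000 with the coding exon printed above in part stood at 64.8% ± 13.7 in SO and 12.2% ± 4.29 in SOA (adjusted p = 6.87e-05). IFC and IV were as far apart in it, with 76.5% ± 13.2 in IFC and 13.4% ± 4.7 in IV.

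In the other direction, the bin chr15:58720001-58730000, which lies beyond Fer1l6 and has no annotated gene, stood at 16.3% ± 11.7 in SO and 75.1% ± 11.8 in SOA (adjusted p = 0.00168). The bin chr14:49230001-49240000, with 6 exons of ccdc198, stood at 10.3% ± 8.15 in SO and 67.6% ± 15.1 in SOA (adjusted p = 6.15e-05), and SO1 had 0 of 17 calls methylated, which allows up to 17.6%. In Rbm47, the bin chr5:66090001-66100000 stood at 59.3%, 8.33%, 74.4%, 30.2% and 37.3% in SO1 to SO5 and at 97.1%, 100%, 89.7% and 93.9% in SOA1 to SOA4. The adults were all near the top while the SO pools were widely spread, and the difference was -53.3 points (adjusted p = 0.000748). The bin chr5:75680001-75690000, with no annotated gene, stood at 31.6% ± 15.3 in SO and 84.5% ± 4.07 in SOA (adjusted p = 0.000486). In all 10 bins the IFC mean differed from the IV mean in the same direction as SO from SOA. The limits given for 0 calls cover counting error only, since reads without molecular identifiers need not be separate molecules.

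Genes of axon guidance and cell adhesion that passed over the gene body were higher in SO. The counts are read beside the 1.64% and 0.764% of all gene bodies and a median difference of -0.1 points over all of them. Longer genes carry more calls, and the lists were not matched to all genes in length. The study had listed axon guidance among the processes enriched in genes hypermethylated in SO against SOA in these libraries. The lists were also chosen with earlier results of these data known, so the counts are not independent evidence. Of 45 axon guidance genes, 6 were higher in SO and 0 in SOA, with a median difference of 0.52 points (10 and 2 at an unadjusted p under 0.05). They were Slit2, its relative Slit3 (62.4% ± 4.8 and 50.2% ± 3.78, adjusted p = 1.89e-05), the secreted semaphorins Sema3a (38% ± 3.84 and 20.3% ± 2.45, adjusted p = 1.68e-05) and Sema3c, the membrane semaphorin Sema5b, and Nrp2, a receptor of secreted semaphorins (22.8% ± 4.25 and 11.1% ± 3.27, adjusted p = 0.000551). With limma, Sema3a passed (adjusted p = 0.038) and the other 5 did not (0.0684 to 0.344), and without SOA4 Nrp2, Sema3c and Sema5b did not pass. Of 27 cadherins and catenins, 4 were higher in SO and 0 in SOA, with a median of 0.585 points and 7 and 1 at an unadjusted p under 0.05, namely Cdh8 (66.4% ± 5.51 and 50.2% ± 2.16), Ctnnd2 (39.6% ± 3.13 and 26.7% ± 4.13), Ctnna2 and Cdh6. None of these 4 passed with limma (adjusted p from 0.157 to 0.464), and without SOA4 Cdh6 did not pass while Cdh13 passed as higher in SOA (0.0194). The bins called in this list were 13 higher in SO and 7 higher in SOA, the latter all in Cdh13.

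Transcription regulators and spindle genes were examined next. The members of these lists were chosen with earlier results of these data known, so the counts are not independent evidence. Over all gene bodies, 1.64% were higher in SO and 0.764% in SOA. Of 28 tested genes in the list of E-protein, Klf and zinc-finger regulators, 5 were higher in SO (Zfp521, Klf12, Tcf4, Sox13 and Sox6). In SOA 2 were higher (Rbm47 and Msi2, which are RNA-binding proteins), and the median was 0.324 points. With limma, Zfp521, Klf12 and Tcf4 passed and the other 4 did not, and without SOA4 Sox13 did not. Of 34 tested spindle genes, 0 were higher in SO and 2 in SOA, with a median of -1.02 points and the same counts at an unadjusted p under 0.05. They were Soga1 and Sfi1, a centrin-binding protein, at 42.7% ± 2.9 in SO and 54.2% ± 3.96 in SOA (adjusted p = 0.000101), which did not pass with limma (adjusted p = 0.316). The body of Sfi1 drew 4568 to 14960 calls per library, more than the 1146 to 4950 of the far longer Tcf4, and whether near-identical copies share these reads was not tested, so its value is uncertain. Of 15 genes that the study chose on these samples, which is not independent evidence, 3 were higher in SO (Zfp521, Tcf4, Atrnl1) and 3 in SOA (Soga1, Msi2, Sfi1). The other 9 did not pass, among them Kctd8, a potassium channel tetramerization domain protein, with 45.3% ± 4.22 and 34% ± 6.05 (adjusted p = 0.0614) and no overlap of the groups.

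Among genes of the methylation machinery, 1 DNA methylation enzyme and 4 genes of histone lysine methylation passed. Over all gene bodies, 1.64% were higher in SO and 0.764% in SOA. Of 17 tested DNA methylation enzymes and their partners, Tdg, a glycosylase of active demethylation, was higher in SO, with 24.3% ± 5.57 in SO and 16.3% ± 11.5 in SOA (adjusted p = 0.0368) and overlapping groups, and 0 were higher in SOA. Of 35 tested genes of histone lysine methylation, Prdm16 (46.7% ± 2.48 and 37.5% ± 4.08), Nsd1 and Mecom were higher in SO and Setd1a (69.1% ± 6.73 and 83.7% ± 5.19) was higher in SOA. The medians of these lists were -0.838 and -0.45 points. None of the 5 genes passed with limma (adjusted p from 0.206 to 0.678) or without SOA4 (0.0921 to 0.595). Of 31 tested oocyte and maternal-effect genes and of 33 tested genes of gonadotropin and steroid signalling, 0 passed in either direction in the logistic model moderated with limma. By the shares over all gene bodies, lists of this size may well hold 0 calls, so these counts tell little about the genes. At an unadjusted p under 0.05, 0 and 4 genes of these lists were higher in SO and 1 and 1 in SOA. Their members differed by -13.0 to 8.75 points and by -11.9 to 5.87 points, with the lowest values in Zp3, which encodes a protein of the zona pellucida, and in Acvr2a, an activin receptor. Of 33 genes of insulin, PI3K and mTOR signalling, Eif4ebp1, a repressor of translation, and Igf2, an imprinted growth factor, were higher in SO and 0 were higher in SOA, with a median of 1.06 points and the same counts at an unadjusted p under 0.05. Eif4ebp1 stood at 54.2% ± 5.33 in SO and 35% ± 9.11 in SOA (adjusted p = 0.00958) and Igf2 at 13.2% ± 5.35 in SO and 4.6% ± 2.03 in SOA (adjusted p = 0.0344), and neither passed with limma (adjusted p = 0.185 and 0.259) or without SOA4 (0.325 and 0.302).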

How the data were processed

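Post-bisulfite adapter tagging (PBAT) libraries of pooled oocytes were trimmed by the authors with Trim Galore 0.4.4 and cutadapt 1.9.1 and mapped to GRCm38 with Bismark 0.19.0, per the labels. The reference is C57BL/6J, so a C to T variant of CBA/Ca reads as unmethylated in all groups. The deposited tables give, for each CpG position, a methylation percent with the methylated and the unmethylated call counts behind it, not normalized. Only the counts were used, and the percent column equalled the value from the counts.

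Calls were summed over 10-kb autosomal bins and over protein-coding gene bodies of GENCODE M21, each with at least 10 calls in all 9 libraries. A logistic model of the calls was fitted per feature with group as a term. Its dispersion between libraries was moderated with limma 3.58.1 in classes of 10 points of methylation and floored at 1, and p-values of an F test were adjusted by Benjamini-Hochberg over all features. In simulated data, this recovered 44.5% of 200 bins changed by 30 points and called 11 unchanged bins of 133451 tested. For gene bodies it recovered 79.5% of 200 and called 38 unchanged genes of 16498 tested. The simulated calls were thus 89 changed and 11 unchanged bins, and 159 changed and 38 unchanged genes. In both, unchanged features made up a larger share of the calls than the limit on the adjusted p allows. The called bins and gene bodies may therefore hold more false calls than that limit implies. Values per library were compared by two-sided exact permutation tests. P-values set the difference against the spread between pools. In the logistic model each library counted by its number of calls, so SOA4, with 23065411 calls, weighed most in SOA. The printed differences are unweighted means of library percentages. Python 3.11.15, numpy 2.4.6, scipy 1.17.1, pandas 2.3.3, matplotlib 3.10.9 and R 4.3.3 were used.

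Named genes were the 15 and 8 with the most bins called in each direction, members of lists that passed or had a list's largest difference (at most 4 of these), and genes the study names. Named bins were the 6 and 4 with the largest differences and no overlap, and named runs the 5 longest. The members and lists were chosen with earlier results of these data known. The result of 1 list is not reported here. Alternatives were the plain logistic test (which the study used), limma on percentages, at least 20 calls, no limit or 30 points, bins shifted by 5 kb, means of position percentages, thinning to the shallowest library, libraries under 10000000 calls, depth class as a term, the replicate number as a block (without SO5, whose number no SOA library has), and each library left out.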

Additional observations from a re-analysis of the deposited data

Results flagged for a closer look

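Of 60 groups of 4 or 5 libraries examined, 8 held a library far from the others, where chance gives about 1 in 20. SO4 stood at 10.5% in the bins under 20% in IV, with the other SO libraries at 7.27% to 7.93%. IFC4 stood at 34.7% in the bins higher in SOA, with the other IFC libraries at 37.6% to 38.0%. SO3 was the low library in the gene bodies of Tcf4 (75.6%, others 77.9% to 78.7%), Zfp521 (54.0%, others 59.9% to 62.0%), Zbtb20 (52%, others 56.5% to 57.4%) and Pakap (27.1%, others 32.3% to 33.2%). SOA2 was the high library in Atrnl1 (36.0%, others 31.8% to 32.4%), and SOA1 in Msi2 (79.8%, others 71.5% to 72.1%). In each of these genes the SO and SOA libraries still did not overlap.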

How the results depend on the processing

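The numbers of bins called higher in SO and in SOA were 1213 and 1265 with the plain logistic test, 221 and 187 with limma, 348 and 292 with at least 20 calls, 1111 and 788 with no limit on the difference, 249 and 203 with a limit of 30 points, 337 and 332 after thinning, and 67 and 47 in the libraries under 10000000 calls. With single libraries left out they ranged from 150 to 726 and from 199 to 686. The numbers of gene bodies were 2719 and 1714 with the plain logistic test, 42 and 22 with limma, and 87 and 48 in the libraries under 10000000 calls. They were 166 (higher in SO) after thinning, and ranged from 88 to 306 and from 75 to 131 with single libraries left out. In simulated data the plain logistic test recovered 100% of the changed genes and called 3519 unchanged ones, and limma recovered 68.5% of the changed genes with 8 unchanged ones called, and 0% of the changed bins. Shifted bins, position percentages and depth class as a term kept the bin counts within 1.5 times.

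The replicate numbers were not taken to pair the libraries in the main fit. Deviations of same-numbered libraries correlated by 0.00495 to 0.0349 and those of other pairs by -0.0232 to 0.0181. In 3 of 4 pairs the SO library correlated best with its own number. Counting error keeps such correlations small, so these values do not decide whether the numbers pair the libraries. The block could be fitted only without SO5, which has no SOA library of its number. With the block, 582 and 428 bins and 235 and 85 gene bodies were called, against 535 and 336 bins and 251 and 75 gene bodies without SO5 and without the block. The mean difference over bins was 0.257 points in both.

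The difference of the mean over bins turned to -0.137 points with at least 20 calls and to -0.0493 after thinning, and ranged from -0.477 to 0.433 with single libraries left out. In bins at 20% to 80% in IV it ranged from -1.47 to 0.139. The difference between IFC and IV ranged from 26.8 to 32.1 points in the bins higher in SO and from -29.0 to -22.5 in those higher in SOA. Without an IFC or IV library its exact permutation p was 0.1 or 0.0667, the smallest then possible. Of 76 named genes, 55 passed, and of these 38 lost their call with limma, 18 in the libraries under 10000000 calls and 14 without SOA4. Over all alternatives, 113 of their values lost the call, 16 gained one, 1078 kept their side and 7 reversed, the last in genes that did not pass. Slc12a5 turned to -1.29 points in the libraries under 10000000 calls and to -0.431 under the block, the value without SO5. With single libraries left out, Slc12a5 ranged from -1.21 to 2.92 points (-0.788 without SOA3), Dppa3 from -15.7 to 0.0121 and Casz1 from -1.82 to 3.67. In alternatives chosen after seeing the data, 74.4% to 91.4% of the bins higher in SO and 52.0% to 65.3% of those higher in SOA touched a gene.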

Other observations

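The gene bodies with the largest difference in each direction were chosen after their values were seen. Abhd16b (chr2:181493206-181494980), which has 1 tested bin, stood at 64.5% in SO and 8.5% in SOA, and ccdc198 stood at 15.04% ± 5.34 in SO and 67.5% ± 12.9 in SOA, with 17.0% ± 8.73 in IFC and 59.5% ± 15.45 in IV. Dok7, an adaptor protein of the neuromuscular junction, had 52.7% ± 6.64 in SO and 76.9% ± 3.34 in SOA, while IFC stood at 81.5% ± 9.27 and IV at 73.8% ± 5.52. Dok7 was higher in SOA than in SO (adjusted p = 2.37e-05 in the logistic model with moderated dispersion, and 0.0511 with limma), and it did not pass in the libraries under 10000000 calls (0.531). Whether IFC and IV differ in Dok7 from each other or from SO and SOA was not tested. Mei1, which acts in meiotic recombination, stood at 4.46% ± 1.39 in SO and 21.9% ± 7.25 in SOA, with 5.22% ± 0.621 in IFC and 19.8% ± 4.47 in IV.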
